A study of Mus musculus with 4 samples.

Results

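Cluster 33 of the mouse posterior hindbrain, which the authors' annotation names by the genes Il1rapl2 and Slc6a5, held 197 nuclei. Its members were all nuclei that passed the authors' quality filter and carried this cluster name in their table of nuclei, out of 39461 kept nuclei (0.499%) and 12539 neurons (1.57%). Among 134 neuronal clusters it was the 4th largest, with a median cluster size of 86.5 nuclei and a largest of 227. The study asked how cells of the dorsal vagal complex, the brainstem region around the area postrema and the nucleus of the solitary tract, respond to joint activation of AgRP neurons and silencing of POMC neurons. RNA of single nuclei was counted as unique molecular identifiers (UMIs, 1 per captured RNA molecule) in 4 libraries.

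The 2 control libraries are labelled WT. The study's methods define its control mice as carrying both receptor alleles, hM3DGqfl/- and hM4DGifl/-, but neither recombinase (AgRP-IRES-Cre-/- and POMC-Dre-/-), so by the methods both groups share the receptor alleles and differ in Cre and Dre. The 2 AgRP-Gq;POMC-Gi libraries came from mice that carried AgRP-IRES-Cre+/- with hM3DGqfl/-, so that Cre made in AgRP neurons switches on the excitatory receptor hM3DGq, and POMC-Dre+/- with hM4DGifl/-, so that Dre made in POMC neurons switches on the inhibitory receptor hM4DGi. All mice, controls included, were adults of 12 to 20 weeks on a C57BL/6 background and received the receptor ligand clozapine N-oxide (CNO) at 3 mg per kg, 1 h before the tissue was taken, without access to food. AgRP neurons lie in the arcuate nucleus of the hypothalamus, where most POMC neurons lie too, and the nuclei described here were not chosen for carrying either receptor. The mice were male and female. Mice of a group were pooled, 2 per group, and the sources do not say which animal or which sex went into which library. The p-values thus measure only the spread between libraries, in which technical and animal differences cannot be told apart. Xist and Uty, genes that differ between the sexes, were unlike between the 2 AgRP-Gq;POMC-Gi libraries, as given below.

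Inhibitory neurons of the hindbrain and spinal cord release glycine, GABA or both. Glycinergic neurons take glycine back up through GlyT2, the product of Slc6a5, and load it into vesicles with the same transporter as GABA, the product of Slc32a1. GABA is made by the enzymes encoded by Gad1 and Gad2, whereas excitatory hindbrain neurons load glutamate through VGLUT2, the product of Slc17a6. Il1rapl2 encodes a synaptic adhesion protein of the interleukin-1 receptor family. During development many glycinergic and GABAergic neurons pass through a stage marked by the transcription factors Pax2, Pax8 and Lhx1.

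The nuclei of cluster 33 were split 41 and 37 over control replicates 1 and 2, and 56 and 63 over AgRP-Gq;POMC-Gi replicates 1 and 2. Median depth was 11121 UMIs per nucleus (2492 to 41984), against 8659 in the other 12342 neurons and 2460 in 16816 oligodendrocytes, and no barcode of the cluster occurred in more than 1 library. Levels are given as counts per 1000000 UMIs (CPM), after summing UMIs over the nuclei of each library. The libraries differed in ways the groups do not explain. Ttr, the transthyretin gene of the choroid plexus, was at 0 and 922 CPM in controls and at 2.81 and 458 CPM in AgRP-Gq;POMC-Gi. Xist, the RNA of the inactive X chromosome, was at 253 and 161 CPM in controls, 309 CPM in AgRP-Gq;POMC-Gi replicate 1 and 0 CPM in AgRP-Gq;POMC-Gi replicate 2, where other neurons had 16.6 CPM against 321 to 546 CPM elsewhere. Uty, a gene of the Y chromosome, was highest in that library, at 165 CPM against 37.9 to 67.3 CPM. The part of these differences in the results below was not tested beyond leaving out each library. The summed level of 5 microglial markers did follow the groups in the cluster, at 181 and 155 CPM in controls against 236 and 210 CPM in AgRP-Gq;POMC-Gi, while other neurons had 170 to 179 CPM, and its part in the group comparison was not tested. Snap25 and Rbfox3, markers of neurons, were found in 96.4% and 86.8% of the nuclei.

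The cluster is named after 2 of its genes, so their levels describe the name and are no independent check of it. Slc6a5 stood at 244 and 192 CPM in controls and at 212 and 237 CPM in AgRP-Gq;POMC-Gi, a mean of 221 ± 23.9 CPM (SD, n = 4 libraries) against 80.5 ± 5.97 CPM in the other neurons. All 4 libraries of the cluster were above all 4 of the other neurons. A UMI of Slc6a5 was found in 82.2% of the nuclei (95% Clopper-Pearson interval 76.2 to 87.3%, counting error only), against 31.9% of other neurons and 1.39% of oligodendrocytes, which should lack the gene. Slc6a5 alone did not set the cluster apart, because 7 neuronal clusters had a higher level and 45 clusters, those 7 included, were above 50% of its level. Clusters were formed from the expression of these nuclei, so every contrast of the cluster with other neurons is a description without a test. As background for the counts below, of the 12612 genes found in at least 5% of the cluster's nuclei, 14.6% were higher than in other neurons in 4 of 4 libraries and 11.5% were lower in all 4. That filter uses the cluster's own nuclei, so it favours genes that are high in them.

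Il1rapl2 was less even. It stood at 432 CPM in control replicate 1 and at 968, 1006 and 852 CPM in the other libraries. The other neurons of control replicate 1 had 427 CPM, so the cluster was barely above them in that library. A UMI was found in 64.5% of nuclei, against 32.2% of other neurons and 1.03% of oligodendrocytes. The ratio to other neurons was 1.89, and the level ranked 25th among the 134 clusters, far under the 3928 CPM of cluster 149 (Cartpt/Arhgap28). Both genes in the cluster's name were thus shared with many neurons, and neither had the highest ratio.

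The machinery for inhibitory transmission was present, and UMIs of the listed glutamate transporter genes were few. Slc32a1 was at 42.5 and 46.6 CPM in controls and at 46.4 and 56.9 CPM in AgRP-Gq;POMC-Gi, 1.77 times the other neurons. Slc17a6 was at 3.69, 5.18, 8.43 and 3.97 CPM in the same order, against 77.3 ± 3.26 CPM in other neurons, and its UMIs were found in 5.58% of nuclei, close to the 3.49% of the shallower oligodendrocytes. Slc17a8, also listed as glutamatergic, was not lower in this way. It had 5, 0, 3 and 6 UMIs in the same order, in 5.08% of nuclei. Its level was 9.24, 0, 4.21 and 7.93 CPM, against 2.17, 2.66, 3.70 and 2.49 CPM in other neurons. The ratio of Slc32a1 to Slc17a6 was 9.04 as it stands, and its log2 was 2.96 with 1 CPM added to each level, both past the 4-fold set for calling a cluster inhibitory. With every nucleus thinned to 2000 UMIs the log2 ratio with 1 CPM added was 1.87, under that limit, with Slc17a6 then detected in 2.54% and Slc32a1 in 10.2% of nuclei.

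GABA synthesis was not raised above other neurons as Slc6a5 was. Gad2 averaged 101 ± 21.7 CPM against 95.3 ± 2.34 CPM in other neurons, and Gad1 averaged 41.8 ± 12.9 CPM against 50.8 ± 3.20 CPM. For both genes the libraries of the cluster lay on either side of the other neurons, which include glutamatergic ones. By level Gad2 ranked 54th and Gad1 59th among 134 clusters, of which 62 had Slc17a6 under 4 times Slc32a1. Slc6a9, which encodes the other glycine transporter GlyT1, was lower in 4 of 4 libraries (8.17 against 13.8 CPM), and the glycine receptor subunit genes Glra3 (110 against 112 CPM) and Glrb (184 against 182 CPM) were near the other neurons. Glra1, a further subunit gene, was higher in 4 of 4 libraries (271 against 228 CPM).

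At full depth and with 1 UMI as the minimum, most nuclei held UMIs of both Slc6a5 and a Gad gene. UMIs of Slc6a5 and of Gad1 or Gad2 occurred in the same nucleus in 111 of 197 nuclei (56.3%), Slc6a5 without a Gad gene in 51, a Gad gene without Slc6a5 in 19 and neither in 16. The share with both was 58.5% and 45.9% in controls and 57.1% and 60.3% in AgRP-Gq;POMC-Gi. Nuclei without Slc6a5 were shallower (median 6445 UMIs) than those with it (11830.5 UMIs), and the part of depth in the missing UMIs was not tested beyond thinning. With all nuclei thinned to 2000 UMIs the share with both was 9.64%, while Slc6a5 was in 31.5% of nuclei, so most nuclei with Slc6a5 then had no Gad UMI. In oligodendrocytes, Gad1 was found in 1.86% and Gad2 in 3.03% of nuclei. In all, 182 nuclei held a UMI of at least 1 of Slc6a5, Slc32a1, Gad1 and Gad2, and 11 held a UMI of Slc17a6.

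**Figure D1:**
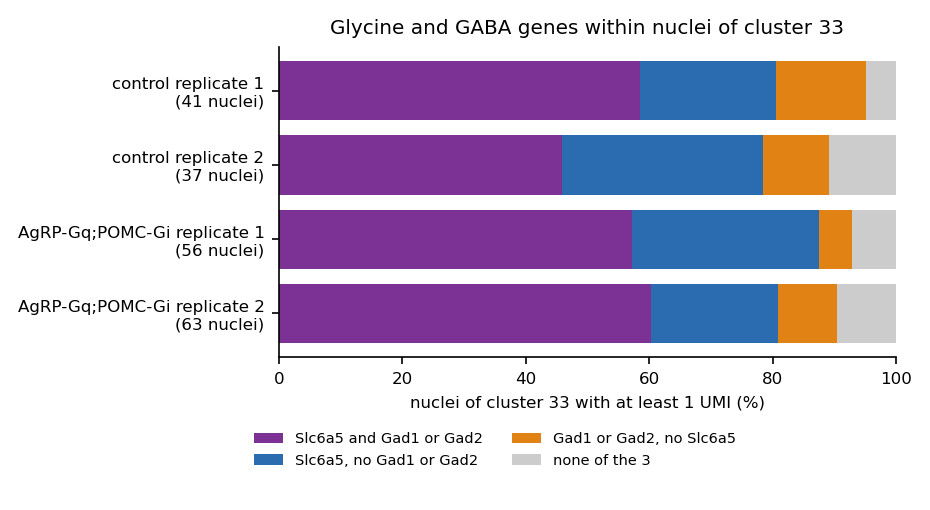
Share of the nuclei of cluster 33 (x axis, percent) with at least 1 UMI of Slc6a5 and of Gad1 or Gad2, of only one kind or of none, in each of the 4 libraries (bars). The share with both kinds ran from 45.9% in control replicate 2 to 60.3% in AgRP-Gq;POMC-Gi replicate 2.

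Genes of other transmitters were scarce or, in the mean of the libraries, close to the level of other neurons. Slc17a7 (VGLUT1), Slc18a3 (the vesicular acetylcholine transporter), Th, Slc6a3, Tph2 and Slc6a4 had 0 UMIs over the 197 nuclei, and none of the 3 cholinergic genes was found in 5% of nuclei. Slc18a2, the vesicular monoamine transporter, was the exception among 8 monoaminergic genes at a mean of 25.2 CPM and in 22.3% of nuclei, against a mean of 23.0 CPM in other neurons. It was below other neurons in both controls (16.6 and 12.9 against 26.7 and 18.9 CPM). In both AgRP-Gq;POMC-Gi libraries it was above them (42.1 and 29.1 against 25.2 and 21.1 CPM). Of 24 neuropeptide genes, 4 were found in at least 5% of nuclei (Penk, Sst, Tac1 and Nppc). None of the 4 was higher than in other neurons in 4 of 4 libraries, and Sst was lower in all (16.1 against 30.4 CPM).

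The gene with the highest ratio to other neurons was Gm12688, a long non-coding RNA. It stood at 53.6 and 46.6 CPM in controls and at 57.6 and 75.4 CPM in AgRP-Gq;POMC-Gi, against 5.22 ± 1.07 CPM in other neurons, a ratio of 9.53. A UMI was found in 86 nuclei (43.7%, interval 36.6 to 50.9%), in 3.29% of other neurons and in 0.0476% of oligodendrocytes. The 197 nuclei were 1.57% of the neurons and held 17.5% of those with a UMI of Gm12688. It was not the cluster's alone, since clusters 177, 153 and 68 had higher levels. In these Slc17a6 was at 161, 139 and 139 CPM, so Gm12688 was not particular to inhibitory clusters. Gm12688 lies on the minus strand at chr4:99653607-99654983 (GRCm38, GENCODE M21), 1315 bases from Foxd3, a forkhead factor gene on the plus strand. Foxd3 itself was low, at 5.39 CPM with UMIs in 5.58% of nuclei, but higher than in other neurons (0.813 CPM) in 4 of 4 libraries.

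The 20 genes of highest ratio held 10 protein-coding genes beside Slc6a5, Lepr, Pax2 and Pax8, and 6 non-coding genes. Gm13415 (38.6 CPM, ratio 3.58) overlaps Pax8 on the opposite strand of chromosome 2. UMIs of both were found in 35 nuclei, of Pax8 without Gm13415 in 54 and of Gm13415 without Pax8 in 22. Gm48749, Gm48727 and Samd5 lie within 1 stretch of chromosome 10, with 228 kb between Gm48749 and Samd5, and their ratios were 2.75, 2.52 and 2.35. Erbb4, the neuregulin receptor, reached 1987 ± 262 CPM against 856 CPM, yet 83.0% of oligodendrocytes also held its UMIs. Adarb2, a relative of the RNA-editing enzymes that marks groups of interneurons in the cortex, averaged 1578 against 697 CPM, and Col19a1, a collagen gene, 112 against 48.1 CPM.

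The 10 genes of lowest ratio were led by Cacna2d1, a calcium channel subunit that is the target of gabapentin. It stood at 9.24, 20.7, 23.9 and 22.5 CPM, against 516 CPM in other neurons, a ratio 25.7-fold lower. The others were Slc17a6, Baiap3, Nrn1, Arpp21, Ebf1, Ebf3, Ankfn1, Camk2a and Camkv. Ebf1 and Ebf3 encode transcription factors, and were 9.88-fold and 8.50-fold lower. Camk2a encodes a kinase of glutamatergic synapses and averaged 12.9 CPM against 109 CPM.

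**Figure D2:**
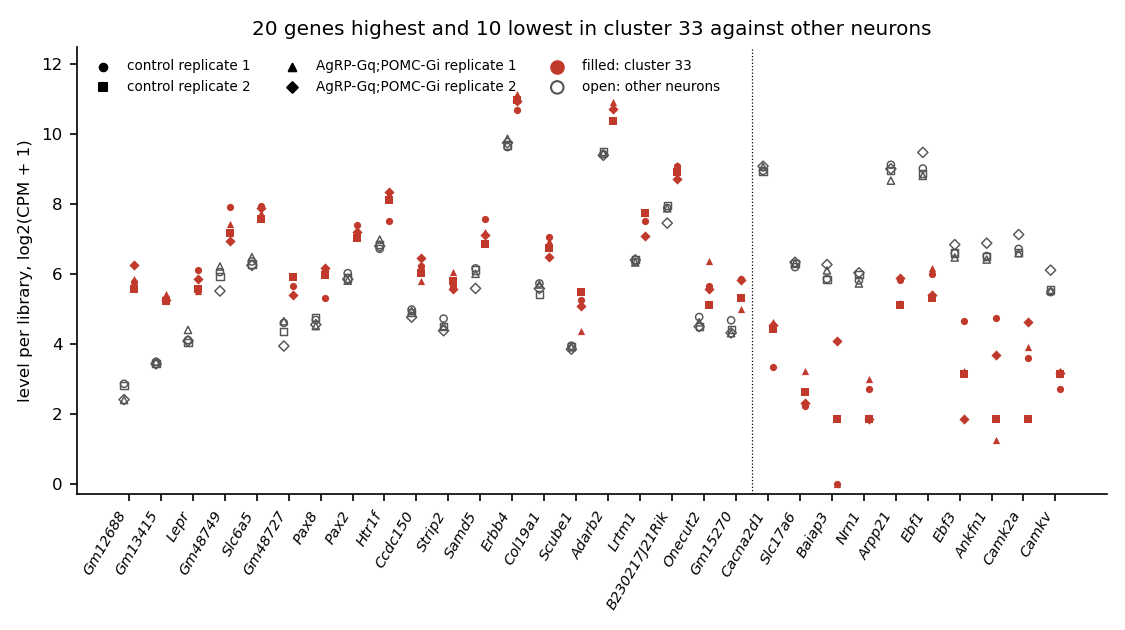
Level of each gene in each library (y axis, log2(CPM + 1)) for the 20 genes of highest and 10 of lowest ratio, in cluster 33 (filled) and in other neurons (open), with 1 marker shape per library. The filled symbols of Gm12688 lie between 46.6 and 75.4 CPM, all above the open ones.

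Of the listed transcription factors of the inhibitory lineage, most of those found in 5% of the cluster's nuclei were higher. Pax2 was at 168 and 129 CPM in controls and at 136 and 147 CPM in AgRP-Gq;POMC-Gi (70.6% of nuclei), against 58.7 ± 3.91 CPM. Pax8 averaged 61.3 ± 15.8 CPM against 23.8 CPM and Lhx1 28.4 ± 8.29 CPM against 14.5 CPM. Of the 22 genes of this list, 5 had 0 UMIs. Another 7 were found in 5% of nuclei and 5 of these were higher in 4 of 4 libraries, among them En1 and Foxd3. The summed level of all 22 was 284 and 334 CPM in controls and 266 and 342 CPM in AgRP-Gq;POMC-Gi. In other neurons it was 303 and 213 CPM in controls and 200 and 230 CPM in AgRP-Gq;POMC-Gi, so the cluster was lower in control replicate 1. Foxd3 was not of inhibitory clusters alone, since it was highest in cluster 68, where Slc17a6 was at 139 CPM. En1, a homeobox factor of a class of ipsilateral inhibitory interneurons, was low in absolute terms, with 19 UMIs (7, 3, 3 and 6 per library) in 9.64% of nuclei. Its 8.21 CPM against 0.486 CPM in other neurons nevertheless placed cluster 33 second among 134 clusters after cluster 73. Foxp2 was uneven between libraries, at 5.54 and 62.1 CPM in the controls and 18.3 and 67.4 CPM in AgRP-Gq;POMC-Gi, and was found in 10.7% of nuclei.

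Factors that mark birth order in the spinal cord split in both directions. Onecut2 (52.8 against 23.3 CPM), Onecut3 (6.33 against 1.69 CPM) and Nfia (226 against 113 CPM) were higher in 4 of 4 libraries. Nfib (23.1 against 107 CPM), Maf, Pou2f2, Zfhx2, Zfhx3 and Zfhx4 were lower in all 4, with Zfhx3 near the other neurons at 454 against 486 CPM. Of these, Onecut2 and Nfia were also found in 24.4% and 70.1% of oligodendrocytes. Of 17 factors of excitatory lineages, 1 was found in 5% of nuclei. That was Ebf1, in 29.4% of nuclei at 53.6 CPM, lower than in other neurons in 4 of 4 libraries. Another 7 had 0 UMIs, among them Tlx3, and Lmx1b, a factor of glutamatergic dorsal neurons, averaged 1.25 CPM against 16.3 CPM. The Ebf genes of this list were not of excitatory clusters alone. Cluster 64 (Ebf3/Pax2) had Slc32a1 at 41.7 CPM and Slc17a6 at 3.30 CPM. Of 22 Hox genes, which record position along the body axis, 10 were found in 5% of nuclei. None of these was higher in 4 of 4 libraries, and Hoxb4, Hoxb5 and Hoxd3 were lower in all.

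Among the listed receptor genes, Lepr had the highest ratio. It encodes the receptor of the fat hormone leptin and was at 68.3 and 46.6 CPM in controls and at 45.0 and 56.9 CPM in AgRP-Gq;POMC-Gi, against 17.0 ± 2.12 CPM in other neurons. Its UMIs were in 39.1% of nuclei (interval 32.2 to 46.3%), against 12.2% and 0.279% of other neurons and oligodendrocytes. Thinned to 2000 UMIs, the shares were 11.2% and 3.18%. By level the cluster was 4th of 134, behind clusters 78, 118 and 174, and 22 clusters, those 3 included, were above 50% of its level. The feeding-related receptor genes Npy5r (22.9 against 11.1 CPM) and Npy2r (5.91 against 3.43 CPM), the opioid receptor gene Oprk1 (25.2 against 12.1 CPM) and the thyrotropin-releasing hormone receptor gene Trhr (23.6 against 8.20 CPM) were also higher in 4 of 4 libraries. These 5 were among 15 of 38 peptide and hormone receptor genes found in 5% of nuclei, while Oprm1, the µ-opioid receptor gene, was lower in all 4. Mc4r, the melanocortin receptor gene on which AgRP and POMC products act, was at 2.56 CPM against 2.21 CPM and in 3.05% of nuclei.

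Serotonin and acetylcholine receptors followed. Htr1f stood at 181 and 277 CPM in controls and at 310 and 324 CPM in AgRP-Gq;POMC-Gi, against 114 CPM, and Htr2c averaged 1358 ± 244 CPM against 723 CPM. Htr2a (26.4 against 13.4 CPM), the muscarinic receptor gene Chrm2 (418 against 257 CPM) and the nicotinic subunit gene Chrna7 (59.1 against 38.6 CPM) were likewise higher in 4 of 4 libraries. Htr7 and Chrm3 were lower in all 4. Of 35 amine and acetylcholine receptor genes, 11 had 0 UMIs.

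**Figure D3:**
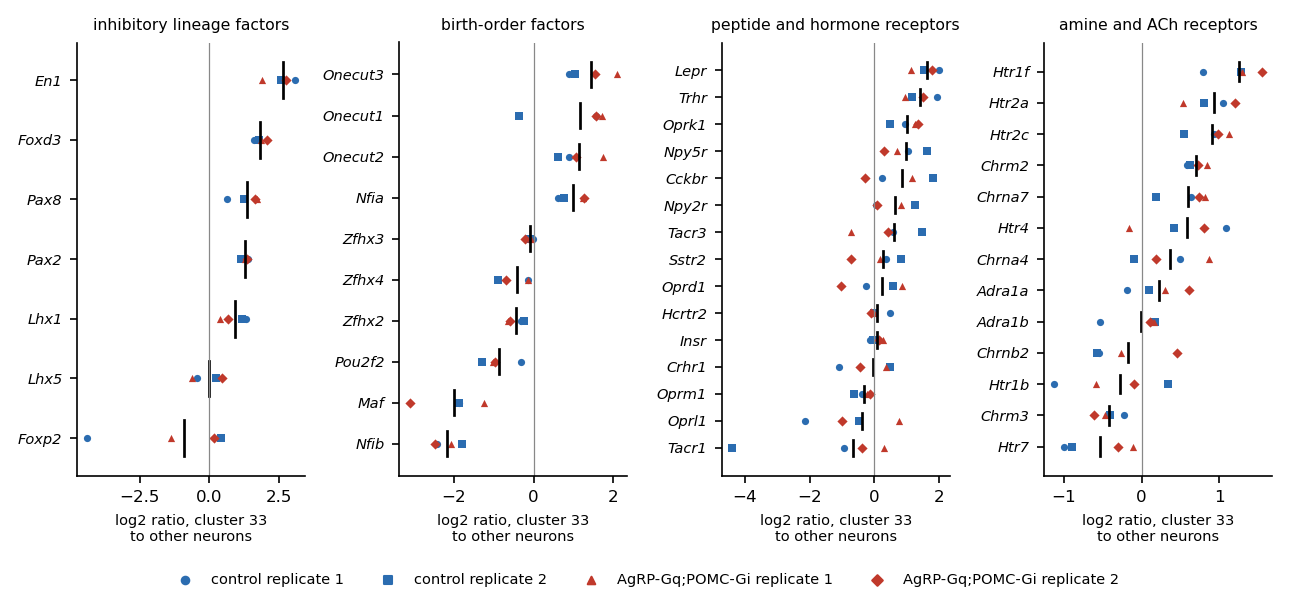
Log2 ratio of the level in cluster 33 to that in other neurons (x axis, CPM with 1 added) for members of 4 gene lists found in at least 5% of nuclei, with 1 symbol per library and a black bar for the ratio of the means. All 4 symbols of Lepr, Trhr, Pax2, Pax8 and En1 lie right of 0.

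Among receptors for fast transmission and ion channels, more genes were lower than higher. Of 13 GABA receptor genes found in 5% of nuclei, 8 were lower in 4 of 4 libraries and only Gabra3 was higher (183 against 150 CPM). Gabra2 was lower at 69.8 ± 4.80 against 149 CPM. The glutamate receptor genes split, with 7 of 23 higher (Gria3 at 670 against 458 CPM) and 9 lower, among them Gria1 (203 against 398 CPM) and Grm8 (190 against 497 CPM). Of 34 channel genes 19 were lower, with Kcnd3 (45.5 against 130 CPM) and Cacna1g, which encodes a T-type calcium channel (16.5 against 51.1 CPM), among them. Another 4 were higher, among them the sodium channel gene Scn1a at 567 against 471 CPM. Of 28 genes of synaptic adhesion 8 were higher, including Nrxn3 (6555 against 4306 CPM) and Lrrtm4 (4470 against 3105 CPM), and 6 were lower, including Cntnap5a (625 against 1196 CPM). Their median log2 ratio was -0.02.

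The neuronal clusters most like cluster 33, by Spearman correlation of mean log2(CPM + 1) over 12115 genes, were cluster 39 (Col19a1/Sv2b, rho 0.970, 175 nuclei), cluster 79 (Kcnmb2/Slc6a5, rho 0.964, 115 nuclei) and cluster 35 (Dmbx1/Cntnap5b, rho 0.963, 189 nuclei). Slc6a5 was at 198, 245 and 174 CPM in these 3 and Pax2 at 96.5, 138 and 167 CPM. The next in order, clusters 30, 62 and 28, were close in likeness (rho 0.961, 0.961 and 0.958) although Slc17a6 was at 135, 171 and 161 CPM in them, so this measure did not separate clusters by transmitter. Without AgRP-Gq;POMC-Gi replicate 2, cluster 30 ranked second and cluster 79 left the first 3. The median over all clusters was 0.887, and larger clusters hold more UMIs. With each cluster thinned to 102993 UMIs, a check chosen after the data were seen, clusters 79 and 35 stayed among the 3 most like and another cluster took the place of cluster 39.

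Gm12688 differed between cluster 33 and all 3, which had 11.0, 7.41 and 0 CPM in the order of likeness. Against cluster 39, Bcl11a (108 against 32.3 CPM) and Pbx3 (565 against 198 CPM), both transcription factors, were higher, and Cacna2d1, Nrn1 and Slc17a6 were lower, the last at 5.32 against 32.5 CPM. Against cluster 79, Adarb2 (1578 against 195 CPM) and Lepr (54.2 against 12.8 CPM) were higher, and Tfap2b, a transcription factor gene found as 1 UMI in cluster 33, was at 42.8 CPM in cluster 79. Against cluster 35, the homeobox gene Meis2 was at 530 against 41.3 CPM, and Otof, Dmbx1 and Tox were lower, Tox at 104 against 539 CPM.

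**Figure D4:**
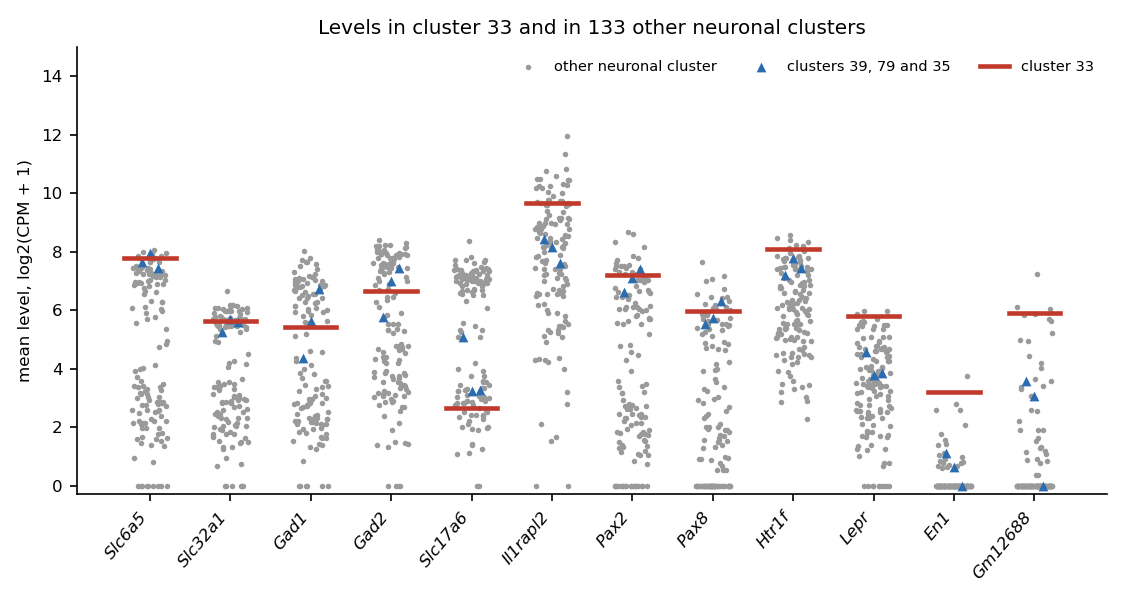
Mean level of 12 genes (y axis, log2(CPM + 1)) in cluster 33 (red bar), in its most like clusters 39, 79 and 35 (blue triangles) and in the other neuronal clusters (grey points). Cluster 33 sits within the upper group of clusters for Slc6a5, in the lower group for Slc17a6, and near the top for Lepr, En1 and Gm12688.

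The comparison of the groups asked whether combined activation of AgRP neurons and silencing of POMC neurons changed these neurons. Cluster 33 was 1.66% and 1.35% of neurons in controls (mean 1.51 ± 0.217%, SD) and 1.52% and 1.73% in AgRP-Gq;POMC-Gi (1.62 ± 0.153%). The libraries overlapped, and the difference of 0.118 percentage points gave p = 0.667 in a two-sided exact permutation test, whose smallest possible p with 2 against 2 libraries is 0.333. Without control replicate 2 the difference was -0.0362 points.

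No gene passed the test between the groups in cluster 33. Of 12612 genes, 0 (0%) had an adjusted p under 0.05 in the quasi-likelihood test of edgeR, 562 (4.46%) had an unadjusted p under 0.05, and DESeq2 called 0, with 47 at that unadjusted level. The 2 libraries of a group lay wholly above or below those of the other in 32.2% of genes, and such an order in a single gene is therefore common. Leaving out control replicate 1, AgRP-Gq;POMC-Gi replicate 1 or AgRP-Gq;POMC-Gi replicate 2 gave 5, 7 and 17 calls, with the smallest p for Ttr, Xist and Ttr, while leaving out control replicate 2 gave 0.

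The immediate early genes, which neurons switch on within minutes of strong activity, differed in how often they were found. Fos gave 0 and 2 UMIs in controls against 1 and 2 UMIs after the joint manipulation, and Nr4a3 had none. Neither gene gave more than 2 UMIs in any library, and a small response could go unseen at such counts. Of the 10 listed by the study, 6 were found in 5% of nuclei, and 0 passed the test or had an unadjusted p under 0.05. Homer1 was at 73.9 and 57.0 CPM in controls and at 43.6 and 64.8 CPM in AgRP-Gq;POMC-Gi. Junb was at 18.5 and 15.5 CPM against 7.02 and 9.26 CPM, without overlap, from 5 to 10 UMIs per library. 1700016P03Rik, a non-coding RNA of the study's list, was at 14.8 and 44.0 CPM against 11.2 and 14.5 CPM (log2 fold change -1.02, SE 0.51, edgeR unadjusted p = 0.0556, adjusted p = 1.00). That change was -0.15 without control replicate 2 and -1.67 without control replicate 1. Against other neurons its difference in log2 fold change was -1.59 (SE 0.50, edgeR unadjusted p = 0.00305, adjusted p = 0.9495).

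The 10 genes of smallest p had adjusted p-values (edgeR, Benjamini-Hochberg) of 0.976 to 1.00. Galnt18, a glycosyltransferase gene, was at 61.0 and 33.7 CPM in controls and at 14.0 and 10.6 CPM in AgRP-Gq;POMC-Gi (log2 fold change -1.92, SE 0.43). Fgf10, a growth factor gene, was at 79.4 and 77.7 CPM against 22.5 and 43.6 CPM, and Abcg4, a sterol transporter gene, at 59.1 and 54.4 CPM against 15.5 and 22.5 CPM. The non-coding 9530026P05Rik went the other way, at 59.1 and 90.6 CPM against 140 and 138 CPM. For each of these the libraries of the groups did not overlap, and none passed the test. Cldn11, a myelin claudin of oligodendrocytes, had 5 UMIs in each control library and 0 in both AgRP-Gq;POMC-Gi libraries, at least 5.28-fold lower by a floor of 3 counts over the group. It was found in 5.08% of nuclei and passed the 5% filter through control nuclei alone. The filter thus favoured that direction, and the contrast is no support for a group difference. The summed level of 6 oligodendrocyte markers was 159 and 202 CPM in the control nuclei of the cluster and 111 and 119 CPM in its AgRP-Gq;POMC-Gi nuclei. Other neurons went the same way, at 312 and 251 CPM in controls against 147 and 186 CPM in AgRP-Gq;POMC-Gi. Cldn11 in other neurons was at 7.64 and 7.69 CPM against 4.19 and 4.14 CPM. The part of the marker levels in that gene was not tested.

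None of the genes that describe the cluster passed the test between the groups. The fitted log2 fold change was 0.10 (SE 0.21) for Slc6a5, -0.14 (SE 0.30) for Lepr and 0.46 (SE 0.29) for Gm12688. For Il1rapl2, whose groups overlapped, it was 0.50 (SE 0.24, edgeR unadjusted p = 0.0474, adjusted p = 1.00), and its interaction with cell population was 0.56 (SE 0.19, edgeR unadjusted p = 0.00594, adjusted p = 0.987). Without control replicate 2 that interaction was 1.11. That fit keeps as its only control library control replicate 1, in which Il1rapl2 was lowest. Slc18a2 was at 16.6 and 12.9 CPM in controls and at 42.1 and 29.1 CPM in AgRP-Gq;POMC-Gi (log2 fold change 1.29, SE 0.44, edgeR unadjusted p = 0.00641, adjusted p = 1.00). Htr1f, Pax8 and Gm12688 were likewise above both controls in both AgRP-Gq;POMC-Gi libraries, the first by 0.56 (SE 0.22) and the second by 0.62 (SE 0.29) on the log2 scale. Of 13 amine and acetylcholine receptor genes tested, 5 had no overlap with higher values in AgRP-Gq;POMC-Gi and 0 with lower ones, against 13.5% and 18.6% of all genes, and 0 passed. The median fitted log2 fold change was 0.21 for those 13 receptor genes, 0.20 for the 9 glycinergic genes tested, -0.39 for 8 glucocorticoid-responsive genes, -0.40 for 5 oligodendrocyte markers, 0.51 for 3 microglial markers and -0.63 for the 6 immediate early genes, against 0.01 for all genes. The median of the immediate early genes was -0.04 without control replicate 2 and -0.96 without control replicate 1. The summed level of 10 glucocorticoid-responsive genes in the cluster was 279 and 233 CPM in controls against 207 and 202 CPM in AgRP-Gq;POMC-Gi. In other neurons it was 294 and 276 CPM against 219 and 226 CPM. No gene of these lists passed the test.

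**Figure D5:**
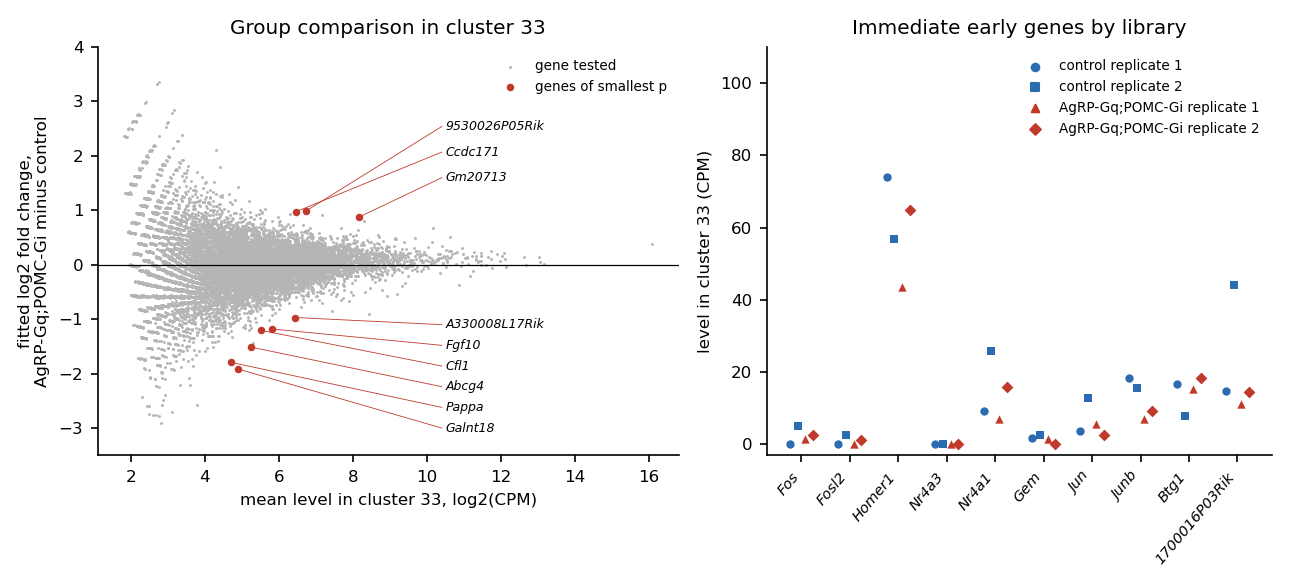
Left, fitted log2 fold change between the groups (y axis) against the mean level in cluster 33 (x axis, log2(CPM)) for 12607 of the 12612 genes tested, without 5 genes that had 0 UMIs in 1 group, with the genes of smallest p in red. Right, level of 10 immediate early genes (y axis, CPM) in each library of cluster 33, where the symbols of the groups overlap for all but Junb and 1700016P03Rik among the 6 genes tested. Over all 12612 genes the groups did not overlap in 32.2%, with both AgRP-Gq;POMC-Gi libraries lower in 18.6%.

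Whether the group effect in cluster 33 differed from that in other neurons was tested as an interaction. Again 0 of 12612 genes passed (0%), with 597 (4.73%) at an unadjusted p under 0.05 in edgeR and 0 calls with 117 at that level in DESeq2. The smallest adjusted p was 0.131, for Fgf10 and Galnt18. Fgf10 was at 45.7 and 41.7 CPM in the other neurons of the control libraries and at 42.2 and 56.9 CPM in those of AgRP-Gq;POMC-Gi, so its difference in log2 fold change was -1.42 (SE 0.29). Gria1, an AMPA receptor subunit gene, was at 211 and 295 CPM in the control and 166 and 140 CPM in the AgRP-Gq;POMC-Gi nuclei of cluster 33, while other neurons held 383 to 427 CPM, with an interaction of -0.80 (SE 0.19) and an adjusted p of 0.276 in edgeR.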

How the data were processed

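UMI counts per gene and nucleus of 4 hindbrain libraries were used. The authors made 10x Genomics libraries, counted UMIs with Cell Ranger (7.0.0) on GRCm38 and processed them with Seurat (4.3.0). The authors deposited raw counts of 44303 barcodes and a table that marks those passing their filter (at least 800 UMIs, 500 genes, at most 10% mitochondrial RNA, no doublet call), 39461 in all, and gives the cluster of each. Immediate early genes were left out of the genes the authors clustered on. Clusters, doublet removal and the mitochondrial percent come from the authors' deposited table. No cell was clustered again here.

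Counts were summed per library over cluster 33 and over the other neurons (386252 to 756232 UMIs per library in the cluster). Genes detected in 5% or more of the cluster's nuclei were tested with the quasi-likelihood test of edgeR 4.0.16 (TMM factors, Benjamini-Hochberg adjustment, R 4.3.3), for the group effect and for its interaction with cell population with library as a block. The code was tested on simulated data with 200 changed genes. Ratios used means of 4 libraries with 1 CPM added. Shares have Clopper-Pearson intervals, which cover counting error only. Genes were named as the 20 highest and 10 lowest ratios (UMI in 25% of the nuclei of the higher side, same direction in 4 of 4 libraries), the 10 smallest group p-values, 5 genes per direction against each of the 3 most like clusters, and list members. The alternatives were DESeq2 1.42.0, no TMM factors, other gene filters, thinning to 2000 UMIs, other correlations and denominators, a replicate block and leaving out each library. The members and lists were chosen with earlier results of these data known. Gene positions are from GENCODE M21, in which 32235 of 32285 genes were found.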

Additional observations from a re-analysis of the deposited data

How the results depend on the processing

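The log2 ratio of Slc6a5 to other neurons (1.45) was 1.67 with each other cluster weighted equally and 0.86 as a difference of mean log2(1 + counts per 10000 UMIs) per nucleus, and it lay between 1.38 and 1.51 with 1 library left out. The log2 ratio of Slc32a1 to Slc17a6 (2.96) was 1.87 with nuclei thinned to 2000 UMIs. The share of nuclei with Slc6a5 and a Gad gene (56.3%) was 9.64% after that thinning and 27.4% when 2 UMIs of each were required. Of the 3 most like clusters, 2 remained with the 2000 most variable genes, 2 without AgRP-Gq;POMC-Gi replicate 2 (3 without any other library) and 2 with equal totals. The difference in share of neurons (0.118 points) ran from -0.0362 to 0.271 points with 1 library left out.

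The labels give both groups the replicate numbers 1 and 2 but name no shared batch. Deviations of same-numbered libraries correlated by 0.0574 in cluster 33 and 0.160 in other neurons, and Ttr was low in both replicates 1 and high in both replicates 2. With only 2 pairs and no batch in the labels, they were taken to share a number only. With the replicate block the group test called 10 genes, 5 in each direction, among them Galnt18, Abcg4 and 9530026P05Rik, and 1 immediate early gene had an unadjusted p under 0.05. The share differed by -0.145 points within number 1 and 0.380 points within number 2.

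Without a gene filter the group test called 1 gene, Sox6, with 2 and 28 UMIs in controls and 4 and 1 in AgRP-Gq;POMC-Gi, and the interaction called 7. Calls with 1 library left out, where the lone library of a group is assumed to vary like the others, ran from 0 to 17 in the group test. The interaction then called Ptprt without control replicate 1, 5 genes (March1, Foxp2, Il1rapl2, Slit3 and Galnt18) without control replicate 2, 4 (Mir670hg, Kcnq5, Foxp2 and Plcl1) without AgRP-Gq;POMC-Gi replicate 1 and 2 (Gm20754 and Sntb1) without AgRP-Gq;POMC-Gi replicate 2, a range of 1 to 5, all named after their values were seen. The number of immediate early genes at an unadjusted p under 0.05 was 1 without TMM factors, 1 without a gene filter, and 0 to 1 with a library left out (1 without control replicate 1). With 1 library left out the log2 fold change of Homer1 ran from -0.477 to 0.00736, turning positive without control replicate 1, and those of Jun from -1.53 to 0.19 and of Nr4a1 from -1.08 to 0.35, both turning positive without control replicate 2. Of the 10 immediate early genes, 4 were found in under 5% of nuclei and were not tested.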

Other observations

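Among pairs of listed genes within the nuclei of cluster 33, Lepr was found in 52.3% of the 86 nuclei with a UMI of Gm12688 (95% Clopper-Pearson interval 41.3 to 63.2%) and in 28.8% of the 111 without it (20.6 to 38.2%), at median depths of 12353.5 and 10737 UMIs. Onecut2 was found in 39.2% of nuclei with Nfia (30.8 to 48.2%) and in 17.9% of those without (9.61 to 29.2%), at 12053.5 and 8605 UMIs. Zfhx3 went the other way although the nuclei with Nfia were deeper, with 65.4% (56.5 to 73.5%) in nuclei with Nfia and 83.6% (72.5 to 91.5%) in those without. Pax8 was as frequent in nuclei with Pax2 (46.0%) as in those without (43.1%), and Slc6a5 was found in 80.3% of nuclei with Il1rapl2 and 85.7% of those without. These shares pool the 4 libraries, and no test was made over nuclei.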
